A study of Mus musculus with 16 samples.

Results

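Mt1, Mt2, Mt3, Slc30a1, Slc30a3 and Mtf1, the 3 metallothioneins and 3 genes of zinc homeostasis described here, are 6 of the 53857 genes measured by RNA-seq in mouse primary neuronal cultures (PNCs) after oxygen-glucose deprivation (OGD). They were chosen by name and by no rule on measured values, but with earlier results of these data known. The FPKM of all isoforms listed under a symbol were added, 21 isoforms in all. FPKM is the number of sequenced fragments scaled to transcript length and library size, a level per length, so levels of different genes can be set side by side. All 6 genes passed the filter on low values, a mean level of 0.5 FPKM or more over the cultures compared, in every comparison.

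PNCs came from the cortex of wild-type mouse embryos at embryonic day 15 (E15). On day in vitro (DIV) 8 they received 10 μM tianeptine (TIA), an atypical antidepressant, or vehicle (VEH), which the labels call untreated. After 24 h, on DIV 9, they underwent 3 h of OGD, a model of ischemia, or a sham procedure, and RNA was taken 6 h later. The 4 groups of 4 cultures were CONTROL-VEH (cultures 1 to 4), CONTROL-TIA (5 to 8), OGD-VEH (9 to 12) and OGD-TIA (13 to 16), and no label ties a culture of one group to a culture of another. How the cultures relate to dissections is not stated in the labels, so p-values measure the spread between these cultures. The RNA came from whole cultures, in which fewer cells of a type and less RNA per cell cannot be told apart.

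The depth, estimated from the FPKM that 1 read gives, was 17.7 to 24.0 M reads per culture. The label of the cells was checked against fixed marker lists. The summed level of 12 neuron markers was 3022 to 3586 FPKM in CONTROL-VEH, with Tubb3 at 979 ± 181 FPKM and Map2 at 607 ± 71 FPKM (SD, n = 4). The cultures also held glial RNA, since 10 astrocyte markers summed to 813 to 1690 FPKM there. Microglia were nearly absent, with 8 markers summing to at most 3.13 FPKM in any culture and Cx3cr1 at 0 in 12 of 16 cultures. Endothelial and mural markers summed to at most 5.69 FPKM and fibroblast and meningeal markers to at most 16.8 FPKM. Culture 9 lay closest to the sham cultures among the 4 OGD-VEH cultures, with a neuron marker sum of 2703 FPKM against 1311 to 2012 FPKM in the others.

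Metallothioneins are small, cysteine-rich proteins that bind zinc and copper and scavenge oxidants. MT1 and MT2 are made on demand, under the control of zinc, glucocorticoids, cytokines and oxidants, and in the brain mostly by astrocytes, whereas MT3 is a brain-enriched form. MTF1 is the zinc-sensing transcription factor that binds metal response elements in the promoters of its targets, SLC30A1 (ZnT1) exports zinc across the plasma membrane, and SLC30A3 (ZnT3) loads zinc into the synaptic vesicles of glutamatergic neurons. Zinc that moves between neurons after ischemia is known as a factor in neuronal injury.

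Mt3, Mt2 and Mt1 lie in this order on the same strand of chromosome 8, Mt2 at chr8:94172664-94173568, Mt1 at chr8:94179082-94180327 and Mt3 at chr8:94152607-94154146 (GRCm38). Slc30a1 lies at chr1:191906767-191913247, Slc30a3 on the minus strand at chr5:31086106-31108237 and Mtf1 at chr4:124802104-124849800. All 6 are protein-coding genes. The 250 bases before the RefSeq start (build GRCm38.p6) are printed for the metallothioneins, to show how the 3 neighbours differ in their metal response elements, and for Slc30a1, another known target of MTF1. Each is written 5′ to 3′ on the strand of the gene, and capitals mark the core of the metal response element, searched on both strands as TGCACNC or TGCGCNC.
Mt1, chr8:94178839-94179088, strand +: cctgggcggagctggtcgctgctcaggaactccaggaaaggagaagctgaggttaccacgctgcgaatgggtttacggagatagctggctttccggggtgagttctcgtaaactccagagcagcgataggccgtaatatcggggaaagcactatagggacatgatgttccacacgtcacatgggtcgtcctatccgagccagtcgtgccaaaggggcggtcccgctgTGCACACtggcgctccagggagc
Mt2, chr8:94172368-94172617, strand +: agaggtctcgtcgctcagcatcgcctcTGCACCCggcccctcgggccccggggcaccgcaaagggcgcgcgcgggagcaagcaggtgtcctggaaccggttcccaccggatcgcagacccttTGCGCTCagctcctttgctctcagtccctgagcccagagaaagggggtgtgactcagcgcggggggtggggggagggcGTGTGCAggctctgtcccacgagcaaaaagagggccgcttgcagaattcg
Mt3, chr8:94152357-94152606, strand +: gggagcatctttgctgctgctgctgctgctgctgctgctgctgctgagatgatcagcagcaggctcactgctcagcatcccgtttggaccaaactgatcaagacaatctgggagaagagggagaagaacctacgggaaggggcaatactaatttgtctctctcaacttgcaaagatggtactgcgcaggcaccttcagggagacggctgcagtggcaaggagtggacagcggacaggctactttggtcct
Slc30a1, chr1:191906531-191906780, strand +: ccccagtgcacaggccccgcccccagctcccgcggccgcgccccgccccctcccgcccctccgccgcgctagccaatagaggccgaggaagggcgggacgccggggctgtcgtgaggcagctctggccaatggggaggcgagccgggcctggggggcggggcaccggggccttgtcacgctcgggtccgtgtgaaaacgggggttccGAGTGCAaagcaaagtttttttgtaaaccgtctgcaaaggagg

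In the window from 250 bases before to 50 bases after the start, the core occurred 4 times at Mt2, 3 times at Mt1, 2 times at Slc30a1 and 1 time at Mt3. Matches after the start are not in the printed sequences. These were 2 at Mt1, at positions 3 and 21, 1 at Mt2, at position 5, 1 at Slc30a1, at position 31, and the single match at Mt3, at position 28, so that no letter of the printed Mt3 sequence is in capitals. Slc30a3 has 2 RefSeq starts, of which 1 had 1 match, and Mtf1 had 0. Among 32851 promoter windows of the same length, 25.7% held at least 1 match, 1.97% at least 3 and 0.517% at least 4. The core of the antioxidant response element, TGACNNNGC on either strand, occurred 1 time at Mt2, 79 bases before the start, and 1 time at Slc30a1, and in 12.4% of all windows. A match is a run of letters and not a measured binding site, and 0 matches say only that these letters are not in the window. RefSeq starts can differ from the gene coordinates given above, and matches outside the windows were not counted. The Mtf1 window, chr4:124802299-124802598, lies wholly inside the gene as given there.

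**Figure D1:**
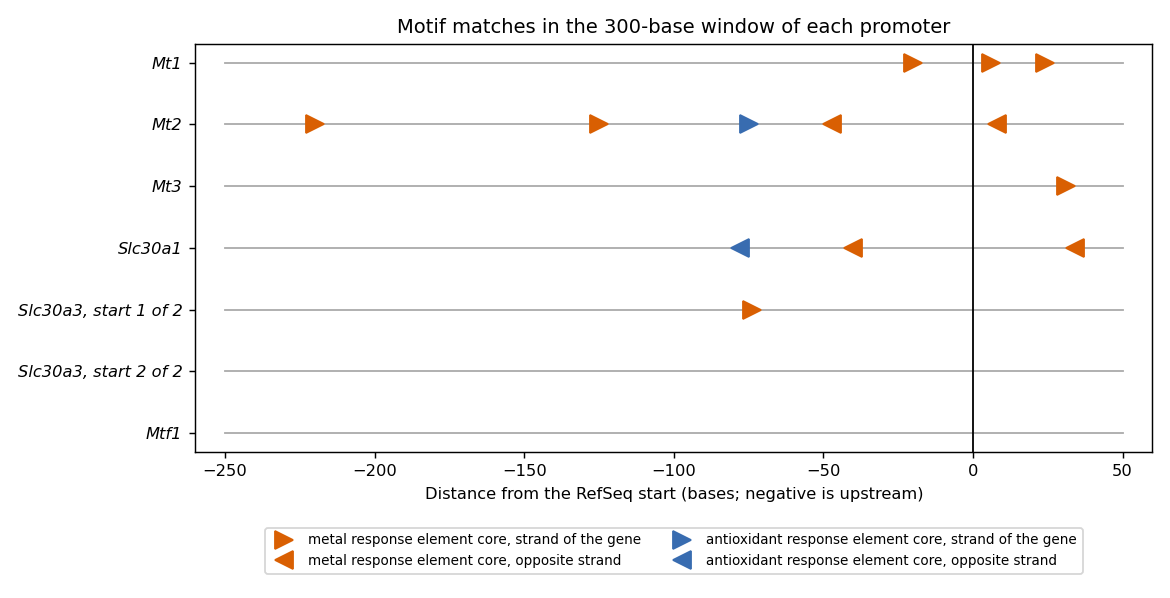
Positions of motif matches in the 300-base promoter windows of the 6 genes (x axis, bases from the RefSeq start; 1 line per start; orange, metal response element core; blue, antioxidant response element core; the triangle points along the strand of the match). Mt2 shows 4 orange marks and Mt1 3, while Mtf1 shows 0.

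The metallothioneins were among the most abundant mRNAs of the cultures, and the other 3 genes were low. In CONTROL-VEH, Mt2 had the 49th highest mean of all 53857 genes, Mt1 the 222nd and Mt3 the 388th. Slc30a1 (8.87 ± 0.77 FPKM) and Mtf1 (8.31 ± 0.21 FPKM) came next, and Slc30a3 (2.16 ± 0.69 FPKM, SD, n = 4) was the lowest. Mt2 exceeded Mt1 and Mt3 in 16 of 16 cultures, and Slc30a3 was below Mtf1 in 16 of 16. Neighbours in the order were not always apart. Mt1 exceeded Mt3 in 12 of 16 cultures but in only 1 of 4 CONTROL-TIA cultures, and Slc30a1 exceeded Mtf1 in 14 of 16. A single isoform carried most of the level of 4 genes. For Mt2, a 388-base transcript held 90.2 to 93.6% of the FPKM, for Mt1 a 549-base transcript 96.1 to 99.1% and for Mt3 a 536-base transcript 83.0 to 90.2%, and for Slc30a1 only 1 of 2 listed isoforms was above 0.

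**Figure D2:**
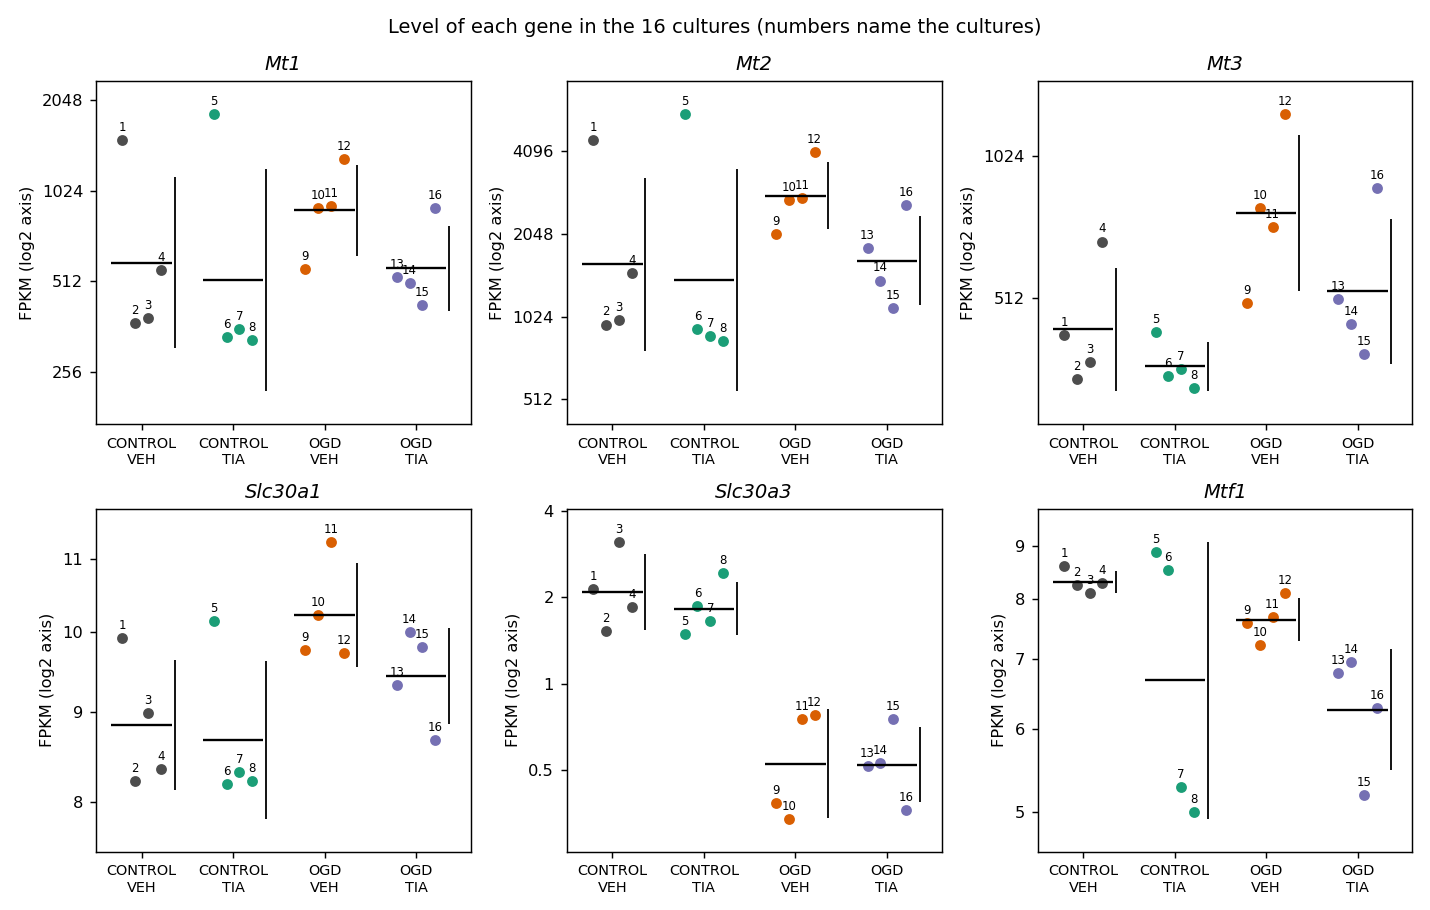
FPKM of each gene in each culture (y axis, log2 scale; x axis, the 4 groups; points are cultures with their number, horizontal bars are geometric means and vertical bars ± 1 SD of the log2 values, n = 4). Cultures 1 and 5 stand above the other cultures of their groups for Mt1 and Mt2, and all 8 OGD cultures lie below all 8 CONTROL cultures for Slc30a3.

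Mt1, an inducible metallothionein, stood at 1512, 374, 388 and 559 FPKM in CONTROL-VEH cultures 1 to 4. In CONTROL-TIA it was 1836, 335, 355 and 328 FPKM in cultures 5 to 8. After OGD it was 563, 897, 913 and 1309 FPKM with vehicle (9 to 12) and 528, 505, 427 and 900 FPKM with TIA (13 to 16). In each sham group a single culture, 1 or 5, was higher than every OGD culture, while the other 3 were lower than all 4 OGD-VEH cultures.

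Mt2, its neighbour, showed the same cultures at the top. Its levels were 4501, 959, 996 and 1473 FPKM in CONTROL-VEH and 5588, 921, 874 and 833 FPKM in CONTROL-TIA. After OGD they were 2049, 2734, 2768 and 4061 FPKM with vehicle and 1815, 1387, 1102 and 2602 FPKM with TIA. Culture 12 was the highest of OGD-VEH and culture 16 the highest of OGD-TIA for all 3 metallothioneins.

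For Mt3, culture 1 lay within the range of its group. Culture 5 was the highest of its group, but at 1.25 times the mean of the others, against 5.41 times for Mt1. Mt3 was 428, 346, 376 and 675 FPKM in CONTROL-VEH and 436, 351, 364 and 332 FPKM in CONTROL-TIA. After OGD it was 500, 793, 725 and 1252 FPKM with vehicle and 511, 453, 390 and 875 FPKM with TIA. The CONTROL-VEH and OGD-VEH cultures overlapped because of culture 4 (675 FPKM) and culture 9 (500 FPKM).

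The first question of the design is what OGD did without TIA. A differentially expressed gene (DEG) had a padj of 0.05 or less (limma, Benjamini-Hochberg over all genes tested) and a log2 fold change of 1 or more in size. Of the 6 genes, 1 was a DEG between OGD-VEH and CONTROL-VEH, Slc30a3, which fell. Of the 16405 genes tested, 4.06% were DEGs, 2.4% higher and 1.66% lower. Slc30a3 and Mt3 had an unadjusted limma p under 0.05, as did 35% of all genes. The median log2 fold change of the 6 genes was 0.39, beside 0.10 over all genes tested.

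The metallothioneins had higher means after OGD, but none passed the test. The log2 fold change of log2(FPKM + 0.1), OGD-VEH minus CONTROL-VEH, was 0.57 for Mt1 (SE 0.45, padj = 0.386), 0.83 for Mt2 (SE 0.47, padj = 0.239) and 0.81 for Mt3 (SE 0.30, padj = 0.0936) in limma. Exact permutation p-values over the 70 assignments of 8 cultures, two-sided and unadjusted, were 0.371, 0.200 and 0.0571, where the smallest possible is 0.0286. For Mt1 and Mt2 the spread within CONTROL-VEH was set by culture 1. Without it the log2 fold changes were 1.03 for Mt1 (padj = 0.0921) and 1.33 for Mt2 (padj = 0.0678), still short of the threshold. Without culture 9 they were 0.79 (padj = 0.240) and 0.98 (padj = 0.189), and Mt3 passed (1.02, padj = 0.0281). With all cultures kept, Mt3 had a padj under 0.05 with array quality weights, by which a more variable culture counts less (0.91, padj = 0.00702) and with all 16 cultures in one fit (0.81, padj = 0.0462), each short of the fold threshold.

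Markers of astrocytes, which make metallothioneins in the brain, are given beside these values. None of 10 tested astrocyte markers was a DEG between OGD-VEH and CONTROL-VEH, and 4 had an unadjusted limma p under 0.05, all higher (20.2% of all genes were higher at that p), with a median log2 fold change of 0.73. Slc1a2, the main glutamate transporter of astrocytes, went the other way (-0.45, padj = 0.369), at 29.5, 62.2, 45.6 and 69.8 FPKM in CONTROL-VEH and 28.6, 30.0, 31.2 and 63.3 FPKM in OGD-VEH. Their summed level was 813, 869, 974 and 1690 FPKM in CONTROL-VEH and 1089, 1497, 1363 and 2734 FPKM in OGD-VEH. It was 853, 779, 705 and 934 FPKM in CONTROL-TIA and 997, 953, 825 and 2076 FPKM in OGD-TIA. Cultures 4, 12 and 16, the highest of their groups for Mt3, were also the highest for the astrocyte sum, but in CONTROL-TIA culture 8 had the highest astrocyte sum and the lowest Mt3. Cultures 1 and 5, the highest for Mt1 and Mt2, were not. Gfap, the classic astrocyte filament, was 87.4, 85.9 and 64.5 FPKM in cultures 4, 12 and 16 and at most 26.2 FPKM in the other cultures. Aldh1l1, of the same list, was the highest of its group in cultures 12 (448 FPKM) and 16 (344 FPKM). In culture 4 it was the lowest (60.6 FPKM). The summed level of 8 oligodendrocyte lineage markers was higher as well, at 177 to 213 FPKM in CONTROL-VEH and 244 to 676 FPKM in OGD-VEH. Of 7 tested, 4 were DEGs, all higher, against 2.4% of all genes (Olig1, Olig2, Sox10 and Cspg4, named after their values were seen). Mbp, of the same list, went the other way. It was 5.88, 7.02, 5.73 and 10.1 FPKM in CONTROL-VEH and 4.87, 3.72, 3.66 and 2.97 FPKM in OGD-VEH. The part of these glial markers in the metallothionein values was not tested.

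Slc30a1 (ZnT1), the plasma membrane zinc exporter, varied little. It was 9.92, 8.23, 8.99 and 8.36 FPKM in CONTROL-VEH and 10.1, 8.20, 8.32 and 8.22 FPKM in CONTROL-TIA. After OGD it was 9.76, 10.2, 11.2 and 9.73 FPKM with vehicle and 9.32, 10.0, 9.80 and 8.68 FPKM with TIA. Cultures 1 and 5 were again the highest of the sham groups, here by a small margin, and CONTROL-VEH and OGD-VEH overlapped through culture 1 alone. The log2 fold change between OGD-VEH and CONTROL-VEH was 0.21 (95% interval -0.070 to 0.48, padj = 0.254), and the other comparisons gave values between -0.11 and 0.12.

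Slc30a3 (ZnT3), which fills synaptic vesicles with zinc, was the only 1 of the 6 genes whose OGD-VEH and CONTROL-VEH cultures did not overlap. It was 2.14, 1.52, 3.12 and 1.85 FPKM in CONTROL-VEH and 1.49, 1.86, 1.65 and 2.43 FPKM in CONTROL-TIA. After OGD it was 0.384, 0.338, 0.753 and 0.775 FPKM with vehicle and 0.515, 0.530, 0.752 and 0.361 FPKM with TIA. The lowest sham culture (1.49 FPKM) lay above the highest OGD culture (0.775 FPKM), so OGD and sham did not overlap with either pretreatment.

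Between OGD-VEH and CONTROL-VEH Slc30a3 fell by 1.79 on the log2 scale (SE 0.34, 95% interval -2.57 to -1.01, padj = 0.0342), to 0.289 times the level. It ranked 297th by p among 16405 genes, where 9.92% of genes had all OGD-VEH cultures below all CONTROL-VEH cultures. Between OGD-TIA and CONTROL-TIA the log2 fold change was -1.63 (SE 0.25, 95% interval -2.20 to -1.05), the 34th smallest p of 16299 genes, but with a padj of 0.0807 it was not a DEG. There 0% of genes were DEGs, 19.5% had an unadjusted limma p under 0.05 and 6.69% had all OGD-TIA cultures lower. The difference between these OGD effects was 0.17 (SE 0.42, padj = 0.914, limma interaction), with a 95% interval from -0.73 to 1.06. The call in the first comparison held without culture 9 (-1.67, padj = 0.0139) and was lost without any of the other 7, where padj was 0.0571 to 0.105. Over these 8 fits the log2 fold change ran from -1.95 to -1.61. Without the filter on low values padj was 0.0722.

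The Slc30a3 values rest on few reads. At the estimated depth they stand for about 57.7 to 74.7 reads in CONTROL-VEH, 66.2 to 83.0 in CONTROL-TIA, 11.3 to 13.5 in OGD-VEH and 15.2 to 33.2 in OGD-TIA. Of 6 listed isoforms, 4 were above 0, and a 407-base isoform gave 0.552 and 0.568 of the 0.753 and 0.775 FPKM in cultures 11 and 12. With isoforms weighted by their length, which counts reads rather than short transcripts, the log2 fold change was -2.13 (SE 0.18, padj = 0.00991) with vehicle and -1.61 (SE 0.21, padj = 0.0362) with TIA, so that the gene was then a DEG in both.

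Other neuronal genes were lower in the same cultures. Slc17a7 (VGLUT1), the vesicular glutamate transporter of the neurons that use ZnT3, was 48.8, 51.5, 47.2 and 49.9 FPKM in CONTROL-VEH and 38.3, 15.5, 18.0 and 7.01 FPKM in OGD-VEH. Its log2 fold change was -1.57 (SE 0.43, padj = 0.0531, limma), with all OGD-VEH cultures lower, as for 9.92% of all genes. The 12 neuron markers summed to 1311 to 2703 FPKM in OGD-VEH and 1790 to 2997 FPKM in OGD-TIA, against 3022 to 3586 and 3070 to 3215 FPKM in the sham groups. Of these markers, 1 was a DEG between OGD-VEH and CONTROL-VEH, and lower, as were 1.66% of all genes. It was Syt1, a synaptic vesicle protein named after its value was seen, which fell by 1.52 on the log2 scale (padj = 0.0447). At an unadjusted limma p under 0.05, 14.8% of all genes were lower, and so were 7 of the 12 markers. Their median log2 fold change was -0.93, and their part in the Slc30a3 result was not tested.

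Mtf1, the zinc sensor, was 8.60, 8.24, 8.10 and 8.28 FPKM in CONTROL-VEH and 8.88, 8.52, 5.29 and 4.99 FPKM in CONTROL-TIA. After OGD it was 7.59, 7.22, 7.69 and 8.11 FPKM with vehicle and 6.79, 6.96, 5.19 and 6.28 FPKM with TIA. Its log2 fold change between OGD-VEH and CONTROL-VEH was -0.12 (SE 0.11, padj = 0.469). A 781-base isoform with a retained intron ranged from 1.08 to 5.35 FPKM and gave 20.5 to 60.3% of the summed FPKM but 2.72 to 13.5% once weighted by length. With that weighting the difference turned to 0.17, so the direction for Mtf1 depended on how isoforms were added.

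**Figure D3:**
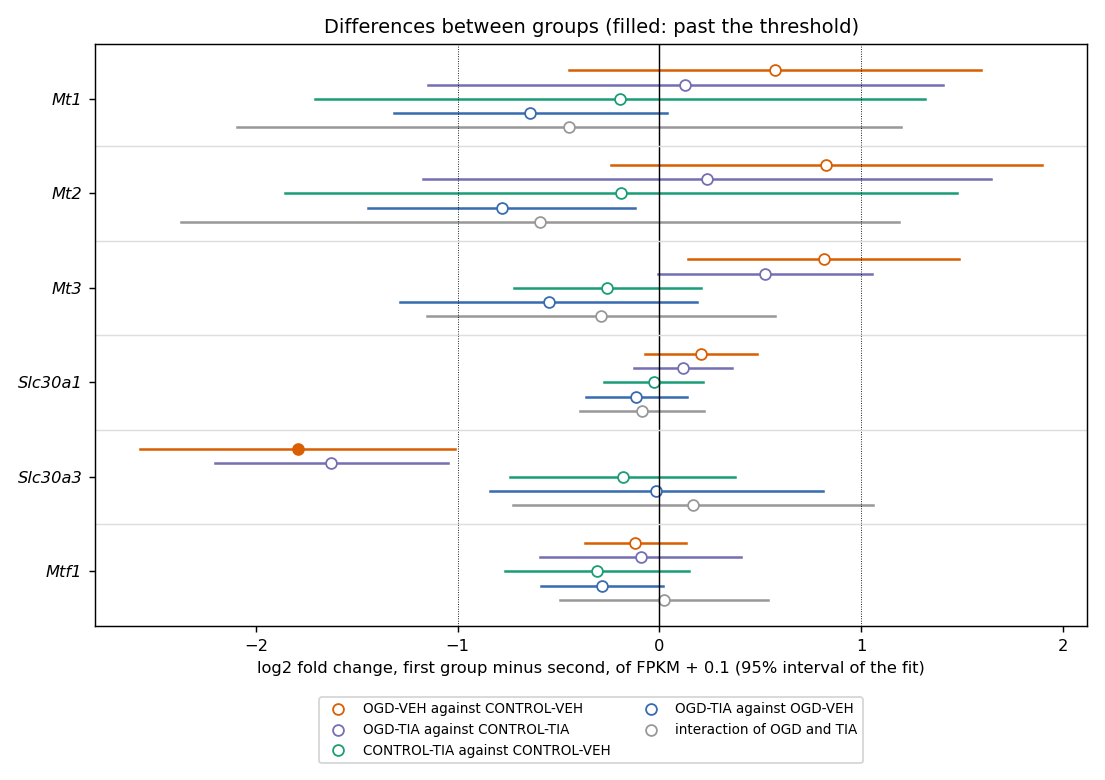
Log2 fold changes of the 6 genes in the 5 comparisons (x axis, first group minus second, on log2(FPKM + 0.1); bars, 95% intervals of the limma fit; filled point, DEG; dotted lines at -1 and 1). Slc30a3 after OGD with vehicle, at -1.79, is the only filled point, and the widest intervals are those of Mt1 and Mt2 where cultures 1 or 5 enter.

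The design next asks what TIA did by itself and what it did to the OGD response. The comparisons share groups: CONTROL-VEH serves 2 of them, and so does each other group. Between CONTROL-TIA and CONTROL-VEH none of the 6 genes was a DEG (0% of 16222 genes; 3.86% had an unadjusted limma p under 0.05), and padj was 0.999 for each. Log2 fold changes ranged from -0.31 (Mtf1) to -0.027 (Slc30a1), and for Mt1 the 95% interval ran from -1.71 to 1.32, an interval that holds differences of 1 log2 unit in both directions. The Mtf1 value shrank to -0.022 with isoforms weighted by length.

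Between OGD-TIA and OGD-VEH all 3 metallothioneins had lower means with TIA, and none passed the test. Log2 fold changes were -0.64 for Mt1 (SE 0.29), -0.78 for Mt2 (SE 0.29) and -0.55 for Mt3 (SE 0.32), each with padj = 0.552 in limma. With array quality weights padj was 0.0469 for both Mt1 (-0.84) and Mt2 (-0.95) and 0.0538 for Mt3 (-0.71), still less than the fold threshold. Mt2 alone had an unadjusted limma p under 0.05 (0.0259), against 7.89% of 16407 genes, 0% of which were DEGs. Its groups overlapped because culture 16 (2602 FPKM) lay above culture 9 (2049 FPKM), and without culture 9 the log2 fold change was -0.93 (padj = 0.168). For Mtf1 all OGD-TIA cultures were below all OGD-VEH cultures (log2 fold change -0.28, padj = 0.552; exact permutation p = 0.0286, the smallest possible), as in 2.49% of all genes. With isoforms weighted by length the Mtf1 value was -0.12. Slc30a3 gave -0.014 with an interval from -0.84 to 0.81, and 0.58 when isoforms were weighted by length.

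In OGD-TIA against CONTROL-TIA none of the 6 genes was a DEG. Mt3 came to 0.52 (SE 0.23, padj = 0.261), with 3 of 4 OGD-TIA cultures above all 4 CONTROL-TIA cultures, and Mt1 and Mt2 to 0.13 and 0.24. Without culture 5 the latter were 0.74 (padj = 0.211) and 0.90 (padj = 0.195). The interaction of OGD and TIA was not significant for any of the 6 genes (0% of 16370 genes were DEGs and 6.06% had an unadjusted limma p under 0.05). Its largest value was that of Mt2, -0.59, with an interval from -2.37 to 1.19, and it was 0.076 without culture 5 and -1.09 without culture 1. The interaction of Mt1 turned in the same way, from -0.45 to 0.16 without culture 5.

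The ratio of Mt2 to Mt1 within a culture does not depend on the scaling between libraries. It was 2.98, 2.57, 2.57 and 2.63 in CONTROL-VEH and 3.04, 2.75, 2.46 and 2.54 in CONTROL-TIA. It was 3.64, 3.05, 3.03 and 3.10 in OGD-VEH and 3.44, 2.75, 2.58 and 2.89 in OGD-TIA. All 4 OGD-VEH cultures lay above all 4 CONTROL-VEH cultures, although the absolute levels overlapped. Of single genes, 12.7% had all OGD-VEH cultures higher and 9.92% all lower. Ratios of other gene pairs were not computed. The mean log2 ratio of Mt1 to Mt2 was -1.68 ± 0.13 in OGD-VEH and -1.42 ± 0.10 in CONTROL-VEH (SD, n = 4), a difference of -0.25 (exact permutation p = 0.0286, the smallest possible; 0.114 adjusted over the 4 comparisons). The difference was -0.11 with TIA (exact permutation p = 0.429, n = 4) and 0.14 between OGD-TIA and OGD-VEH (exact permutation p = 0.257, n = 4). With isoforms weighted by length the same separation held, at 3.68 to 4.38 in OGD-VEH and 3.09 to 3.59 in CONTROL-VEH.

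**Figure D4:**
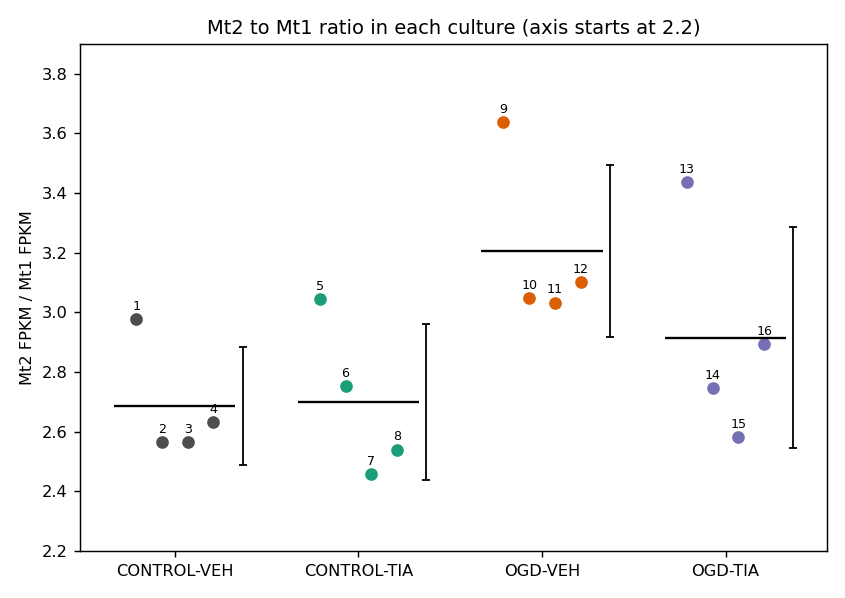
Ratio of Mt2 FPKM to Mt1 FPKM in each culture (y axis, starting at 2.2; x axis, the 4 groups; points are cultures with their number, horizontal bars means, vertical bars ± 1 SD, n = 4). The OGD-VEH cultures, at 3.03 to 3.64, lie above the CONTROL-VEH cultures, at 2.57 to 2.98.

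No other zinc transporter was a DEG. None of the 6 tested genes among the 8 other ZnT exporters was a DEG between OGD-VEH and CONTROL-VEH, and their median log2 fold change was -0.041, with 3 at an unadjusted limma p under 0.05, 1 higher and 2 lower (35% of all genes, 20.2% higher and 14.8% lower). Those with the smallest p were Slc30a10, a manganese and zinc exporter (-0.48, padj = 0.0671), and Slc30a9, a mitochondrial zinc transporter (-0.31, padj = 0.0887). Both had all OGD-VEH cultures lower, as did 9.92% of all genes. Next came Slc30a5, of the secretory pathway (0.36, padj = 0.139), and its partner Slc30a6 (0.27, padj = 0.194). Slc30a2 and Slc30a8 were below the filter. For Slc30a10 the OGD-VEH cultures stood at 5.17, 3.74, 3.81 and 3.80 FPKM and the OGD-TIA cultures at 5.57, 5.53, 5.16 and 5.49 FPKM, which overlapped only through cultures 9 and 15.

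Of the 14 ZIP importers, 11 were tested and none was a DEG, with a median of 0.12 and 2 higher at an unadjusted limma p under 0.05, against 20.2% of all genes. Slc39a1 (ZIP1), an importer of the plasma membrane, came nearest (0.87, SE 0.23, padj = 0.0510). It was 19.7, 19.3, 21.1 and 21.3 FPKM in CONTROL-VEH and 24.4, 38.0, 36.3 and 56.9 FPKM in OGD-VEH, so all OGD-VEH cultures were higher, as for 12.7% of all genes. Slc39a7, of the endoplasmic reticulum, gave 0.31 (padj = 0.123), Slc39a14, an importer induced in inflammation, 0.77 (padj = 0.159) and Slc39a3 (ZIP3), of the plasma membrane, -0.72 (padj = 0.164). Mt4, a metallothionein of squamous epithelia, was at 0 in 12 of 16 cultures and at most 0.663 FPKM.

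Partners of vesicular zinc had a median of -0.41. None of 6 tested was a DEG, and 3 had an unadjusted limma p under 0.05, all lower (14.8% of all genes were lower at that p). Beside Slc17a7 these were Ap3b2, a neuronal subunit of the adaptor that sorts ZnT3 to vesicles (-0.41, padj = 0.0615), and Slc17a6 (VGLUT2; -1.004, padj = 0.106), while Ap3m2 of the same adaptor gave -0.33 (padj = 0.151). Copper handling genes, which metallothioneins touch through copper binding, had a median of 0.34 and 0 DEGs of 9 tested, with 4 higher at an unadjusted limma p under 0.05, against 20.2% of all genes. Cox17 (0.53, padj = 0.0409) and Ccs (0.69, padj = 0.0420) are chaperones that pass copper to cytochrome oxidase and to superoxide dismutase. Both had all OGD-VEH cultures higher, as did 12.7% of all genes. They passed on padj, as 8.39% of all genes did, but not on fold. Commd1, a regulator of copper export, gave 0.43 (padj = 0.0566) and Slc31a1, the copper importer, 0.34 (padj = 0.132).

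For the glucocorticoid, cytokine and oxidant control of metallothioneins 3 lists were taken. The glucocorticoid and STAT3 lists hold targets of these pathways as well as regulators, and the oxidant response list holds targets only. None of 8 genes for the glucocorticoid receptor and its targets was a DEG between OGD-VEH and CONTROL-VEH, and none had an unadjusted limma p under 0.05. Their smallest p were those of Nr3c1, the receptor (0.54, padj = 0.221), its targets Tsc22d3 (0.32, padj = 0.226), Ddit4 (-0.32, padj = 0.261) and Klf9 (-0.27, padj = 0.318). In the list of the STAT3 axis of cytokine signalling, 2 of 5 tested genes were DEGs, both higher, against 2.4% of all genes. Stat3, the transcription factor of this axis, rose by 1.08 (padj = 0.0375), Osmr, the oncostatin M receptor, rose by 2.69 (padj = 0.0286), and Socs3, a feedback inhibitor (1.15, padj = 0.0820), and Il6st, the shared receptor chain (0.63, padj = 0.122), did not pass.

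The oxidant response list had the most DEGs, 6 of 7 tested, all higher, against 2.4% of all genes. Hmox1, heme oxygenase, rose by 3.03 (SE 0.67, padj = 0.0411), Srxn1, sulfiredoxin, by 2.76 (padj = 0.0342), and Nqo1, a quinone reductase, by 2.33 (padj = 0.0338). Txnrd1 (1.57), Gclm (1.92) and Gclc (1.49), of the thioredoxin and glutathione systems, were DEGs as well, and Slc7a11, the cystine importer, missed the threshold (2.61, padj = 0.0503). Hmox1 was 74.0, 19.7, 22.2 and 14.1 FPKM in CONTROL-VEH and 64.2, 265, 273 and 439 FPKM in OGD-VEH, with 114 FPKM in culture 5. Cultures 1 and 5 thus stood above the other sham cultures for Hmox1 as for Mt1 and Mt2. Leaving out any culture but number 9 left at most 71 DEGs of all genes. In the other 4 comparisons none of the genes in these lists was a DEG. In OGD-TIA against CONTROL-TIA the medians were 1.36 for the oxidant response, 0.94 for the STAT3 axis and -0.31 for the vesicular partners.

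**Figure D5:**
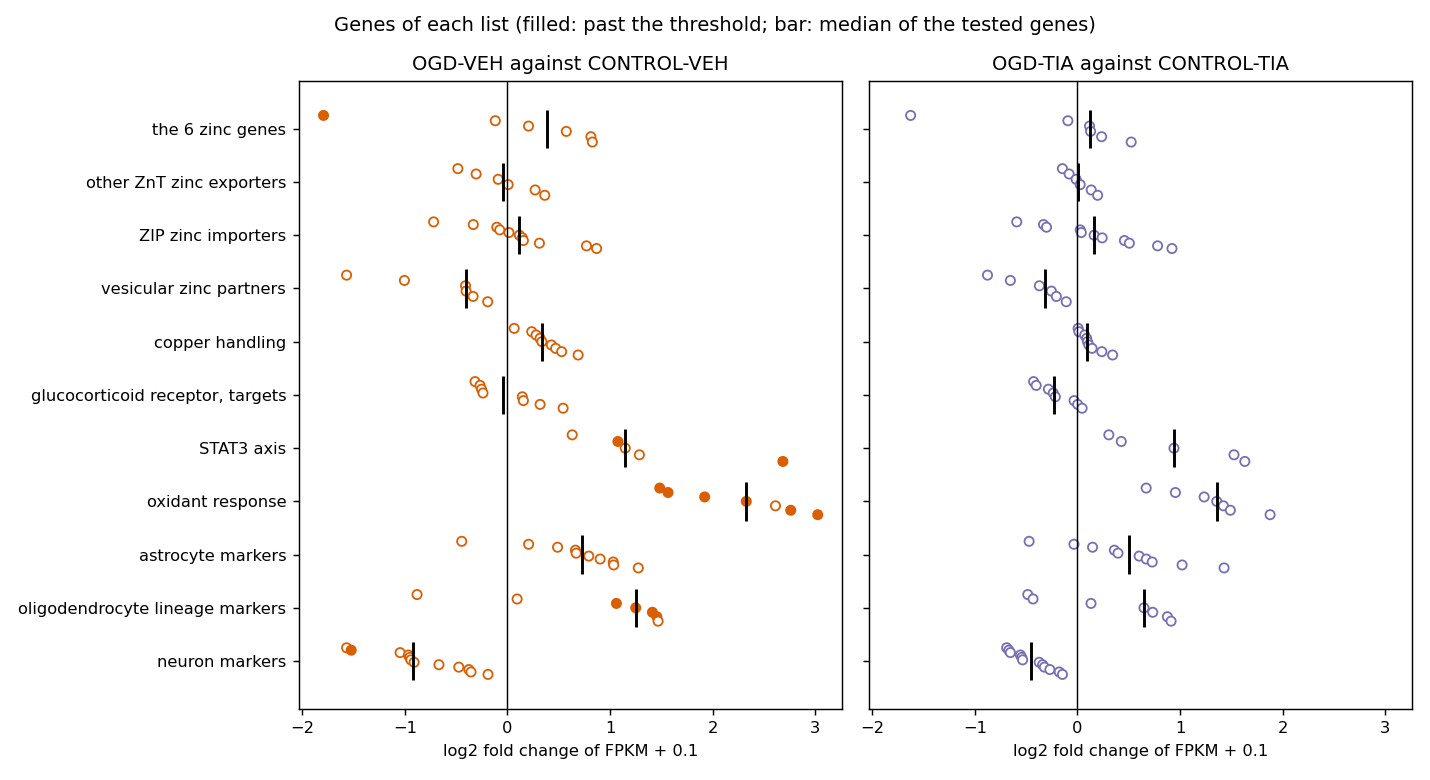
Log2 fold changes of the tested genes of each list (x axis, on log2(FPKM + 0.1); left, OGD-VEH against CONTROL-VEH; right, OGD-TIA against CONTROL-TIA; points are genes, filled points DEGs, black bars medians). The oxidant response has 6 filled points at left, the 6 zinc genes 1 and the ZnT and ZIP families 0, and no point is filled at right.

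The genes whose pattern over the 16 cultures was most like that of each gene were sought among the 14654 genes that averaged 1 FPKM or more, by the root mean square (RMS) difference of log2(FPKM + 0.1) about each gene's mean. For Mt1 and Mt2 each was the nearest to the other, at 0.158 log2 units, and the next for either, Ubac2 for Mt1 (0.447) and Dleu2 for Mt2 (0.529), was far behind. The closer neighbours of Mt3 included Gstm1, a glutathione S-transferase (0.0729), and Dbi, an acyl-CoA-binding protein abundant in glia (0.0966). Gstm1 averaged 516 FPKM in CONTROL-VEH, 433 in CONTROL-TIA, 996 in OGD-VEH and 664 in OGD-TIA, beside 456, 371, 818 and 557 FPKM for Mt3.

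The other 3 genes had less distinct neighbours. For Slc30a1, whose own spread was 0.136 log2 units, they were Mrps18c (0.0645), Ube2s (0.0657) and Fkbp4 (0.0682). For Slc30a3 they were Gm48249 (0.460), Car10 (0.494) and Gm11767 (0.526), beside its own spread of 0.928. For Mtf1 they were Mpdu1 (0.178), Cox14 (0.184) and Fam162a (0.188) against a spread of 0.260.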

How the data were processed

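RNA of 16 cultures was sequenced by the authors' service provider as stranded mRNA libraries with 50-base single-end reads. Reads were mapped with STAR to GRCm38 with the Ensembl 92 annotation, and isoforms were quantified with eXpress. The authors' tool for testing, DESeq2, needs counts and was not applied. What the authors deposited is a table of isoforms whose name gives the unit as FPKM with TMM scaling between libraries. Of 135276 lines, 74 without an identifier were left out. Because FPKM are no counts, depth was estimated from 12220 genes with a single isoform, and no counting intervals were computed.

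FPKM were summed per gene, and log2(FPKM + 0.1) was tested with limma 3.58.1 (R 4.3.3, empirical Bayes with trend) on genes averaging 0.5 FPKM or more over the cultures compared. In simulated data limma was checked on known changes. Exact permutation tests were two-sided over 70 assignments, or fewer where a culture was left out. Alternatives were a pseudocount of 1 or 0.01, no filter, a minimum of 2 FPKM, isoforms weighted by length, array quality weights, median-ratio scaling, all 16 cultures in one fit and leaving out each culture. Leaving out cultures 1 and 5 together was added after seeing the data. Named genes were the 6 genes, DEGs of the fixed lists, up to 4 genes per list with the smallest p after OGD with vehicle, and the 3 nearest genes, of which 1 is not reported here. Promoters came from RefSeq (GRCm38.p6), in which all 6 genes matched. The genes and lists were chosen with earlier results of these data known. Python 3.11.15 was used for other steps.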

Additional observations from a re-analysis of the deposited data

Results flagged for a closer look

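Of 28 groups of 4 cultures checked by Dixon's test, 4 held a value that stood apart from the other 3, where chance gives about 1 in 20 groups, or 1.4. Of these, 3 were the same culture, number 5 of CONTROL-TIA, the highest of its group for Mt1 (1836 FPKM), Mt2 (5588 FPKM) and Slc30a1 (10.13 FPKM). The other was the log2 ratio of Mt1 to Mt2 in OGD-VEH, where culture 9 stood at -1.863.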

How the results depend on the processing

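No paired analysis was possible because the labels number the cultures 1 to 16, with no number shared between groups. Between OGD-VEH and CONTROL-VEH 666 genes were DEGs, and 36 without a filter, 1930 with array quality weights, 1118 with isoforms weighted by length and 1390 with all 16 cultures in one fit. Of the 6 genes, 0 were DEGs there without a filter or with a minimum of 2 FPKM, which Slc30a3 does not reach. Leaving out single cultures gave 1 to 2185 DEGs, namely 8, 1, 1 and 18 without cultures 1 to 4 and 2185, 5, 6 and 71 without cultures 9 to 12, and 0 to 2 among the 6 genes. Between OGD-TIA and CONTROL-TIA, 0 became 7 without a filter, 80 with array quality weights, 65 with length weighting and 1 in the fit of all 16 cultures, and 0 to 17 without single cultures (2 without culture 7 and 17 without culture 16). Of the 6 genes, 1, Slc30a3, was a DEG there with array quality weights and with length weighting. No filter gave 4 DEGs between CONTROL-TIA and CONTROL-VEH, 4 between OGD-TIA and OGD-VEH and 3 in the interaction. Array quality weights gave 402 between OGD-TIA and OGD-VEH, and leaving out single cultures gave 0 to 2 there (2 without culture 9 and 1 without culture 12) and 0 to 1 in the interaction (1 without culture 3). The cause was not tested.

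Directions turned with length weighting for Mtf1 (0.17 for OGD-VEH against CONTROL-VEH, 0.067 for OGD-TIA against CONTROL-TIA and -0.10 in the interaction) and for Slc30a3 between CONTROL-TIA and CONTROL-VEH (0.056) and between OGD-TIA and OGD-VEH (0.58, and 0.028 with median-ratio scaling and 0.083 with array quality weights). Leaving out single cultures, log2 fold changes crossed 0 as follows. Between OGD-TIA and CONTROL-TIA they ran from -0.094 to 0.74 for Mt1, -0.010 to 0.90 for Mt2 and -0.23 to 0.042 for Mtf1. Between CONTROL-TIA and CONTROL-VEH they ran from -0.80 to 0.26 for Mt1, -0.86 to 0.31 for Mt2, -0.10 to 0.028 for Slc30a1 and -0.32 to 0.0058 for Slc30a3. Between OGD-TIA and OGD-VEH Slc30a3 ran from -0.19 to 0.14. In the interaction they ran from -0.90 to 0.16 for Mt1, -1.09 to 0.076 for Mt2, -0.020 to 0.32 for Slc30a3 and -0.11 to 0.16 for Mtf1. Without cultures 1 and 5 together, an alternative added after seeing the data, Mt1 was -0.35 and Mt2 -0.36 between CONTROL-TIA and CONTROL-VEH.

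The log2 ratio of Mt1 to Mt2 ranged from -0.30 to -0.19 between OGD-VEH and CONTROL-VEH when single cultures were left out, with an exact permutation p of 0.0571 without any of cultures 9, 10, 11 and 12. It ranged from 0.079 to 0.22 between OGD-TIA and OGD-VEH and from -0.056 to 0.055 between CONTROL-TIA and CONTROL-VEH. Between OGD-TIA and OGD-VEH the exact permutation p was 0.0286 without culture 13 and up to 0.486 without another culture. With a culture left out there are fewer than 70 assignments, and these p-values are unadjusted. With all cultures, 220 of 230 log2 fold changes of the 6 genes kept their direction and their side of the threshold. With cultures left out, 263 of 300 did, while 29 changed direction, 7 lost the call of a DEG and 1 gained it. Only 1 main result, that of Slc30a3, was a DEG, so keeping the side of the threshold says little for the others. The level of Slc30a3 after OGD, at 11.3 to 33.2 estimated reads, is the value most limited by depth.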

Other observations

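Cultures 1 and 5 were looked at together after their high Mt1 and Mt2 values were seen. The presence of Mt1 and Mt2 among the genes below is therefore no separate result. Of the genes tested in the interaction, 205 were at least 1 log2 unit above all 3 other cultures of the group in culture 1 and 240 in culture 5. Of these, 30 genes (0.183% of all) were so in both, while 4 genes were at least 1 log2 unit below in both. Ordered by the smaller of the gaps in cultures 1 and 5, Hist1h2bn and Hist1h2bq came first. Hmox1 was 7th, Mt2 11th, Mt1 12th, Emp3 14th and Fosl1 16th. Mt2 was 3.94 times the mean of the other 3 cultures in culture 1 and 6.38 times in culture 5, and Hmox1 was 3.96 and 5.58 times. In culture 1 every member of the astrocyte list but Aldh1l1 lay below the mean of the other 3 cultures. In culture 5 Aldh1l1, Sox9, Fgfr3 and Aldoc lay above that mean and the other members below. Slc1a2, the main glutamate transporter of astrocytes, was at 0.499 and 0.501 times the mean of the others. Aldh1l1 was at 1.20 times in culture 1, within the range of its group, and at 1.78 times in culture 5.

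Values at the start and the end of the numbering within each group also stood out, as seen after the fact. Cultures 1, 5, 9 and 13 had the highest ratio of Mt2 to Mt1 of their groups, at 2.98, 3.04, 3.64 and 3.44. Cultures 4, 8, 12 and 16 had the highest summed astrocyte markers of their groups, at 1690, 934, 2734 and 2076 FPKM. Mt3 was the highest of its group in cultures 4, 12 and 16 and the lowest in culture 8. The labels do not state what the culture numbers mark.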
